A study of Mus musculus with 26 samples.

Results

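The DNA replication machinery was followed through 51 genes, chosen by name and by the step at which their products act: 9 of origin licensing, 16 of the replicative helicase and its activation, 10 of the polymerases, 9 of the sliding clamp, its loader and flap processing, and 7 of single-strand binding and fork protection. They were read among the 45318 genes of the count files, and all 51 passed the filter on low counts, as did 15023 genes in all. The libraries came from 4T1, a mammary carcinoma line of BALB/c origin, and the study asked how these cells change when the nuclear long noncoding RNA MaTAR25 is lost. Controls were wild type for MaTAR25 and carried a guide RNA against Renilla luciferase (2 libraries). The study grew its control cells as single-cell clones too, and the library titles do not name the control clone. KO1 (3 libraries) and KO2 (4 libraries) are MaTAR25-/- cells, each grown from 1 sorted cell after CRISPR/Cas9 removed a stretch that includes the transcription start, so each knockout is 1 clone, and what belongs to the clone and what to the genotype cannot be told apart. No label says that replicates are separate cultures, so the spread between them may be technical.

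DNA replication starts at origins, where the origin recognition complex (ORC), Cdc6 and Cdt1 load the Mcm2-7 ring in G1. The kinase Cdc7 with Dbf4, and then Cdc45 and the GINS complex, turn that ring into the active helicase in S phase. Polymerase alpha with primase lays down primers, polymerases epsilon and delta extend them, the PCNA clamp is placed by replication factor C (RFC), and Fen1 and Lig1 process and join the lagging-strand fragments. Many of these genes are known targets of E2F transcription factors, which act at the passage from G1 to S phase and bind letters such as TTTCGCGC close to the transcription start.

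Libraries held 25367211 to 61110585 counts on genes. MaTAR25 itself (1200007C13Rik) had 35 and 30 counts in control, 2, 7 and 0 in KO1, and 11, 1, 9 and 6 in KO2, lower in every KO library. Epithelial markers were abundant, with Epcam, Krt8, Krt18 and Cdh1 read in every library and Krt5 at 0. The 6 epithelial markers summed to 2814 and 2973 CPM (counts scaled to a common library size) in control and to 1411 to 3845 in KO libraries. Markers of other cells were low. Summed CPM ran from 4.88 to 29.3 for the 5 leukocyte markers, with Adgre1 at 0. For the 7 fibroblast markers it ran from 11.8 to 47.6, mostly Pdgfra, with Col3a1, Dcn and Lum at 0. For the 3 endothelial markers it ran from 0.0659 to 1.56.

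Most replication genes were higher in KO than in control cells, and none was called lower. Of 51 members, 39 were called higher (edgeR quasi-likelihood test, Benjamini-Hochberg adjusted p under 0.1 over all genes), 0 lower, and 12 did not pass the test. Among all 15023 genes tested, 11.9% were called higher and 10.7% lower. DESeq2 called 40 members higher and 1 lower. At an unadjusted p under 0.05, 43 members passed. The median log2 fold change of the members was 1.30, beside 0.06 over all genes tested, and 48 members lay above 0. Summed over the 51 members, the level was 2707 and 2975 CPM in control, 6335, 7201 and 7660 in KO1, and 6086, 5507, 6069 and 5740 in KO2, so that no KO library came near a control. In 39 members (76.5%) every KO library was above both control libraries, beside 16.9% of all genes tested. In bulk RNA, a changed share of cells in S phase and a changed amount of these transcripts per cell cannot be told apart. In the study's separate BrdU assay of control and KO1 cells, S phase held a smaller share of KO1 cells and G2 a larger one. The part of phase shares in these values was not tested. The count of calls rested on having both controls: 17 members were called higher without control replicate 1 and 19 without control replicate 2, where 1.26% and 1.57% of all genes were called higher. The median log2 fold change was 1.19 and 1.41 in those fits.

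**Figure D1:**
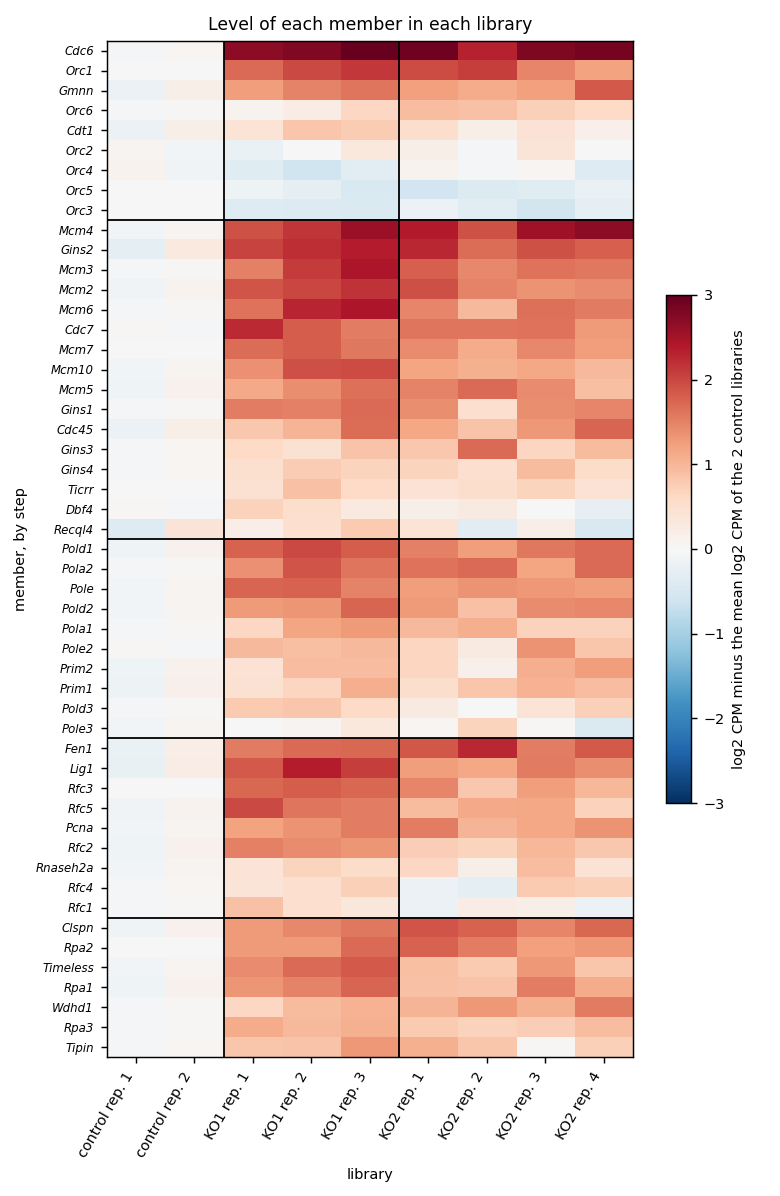
Level of each of the 51 members (rows, grouped by step) in each of the 9 libraries (columns), as log2 CPM minus the mean log2 CPM of the 2 control libraries. Red fills the 7 KO columns for most rows, while the rows of Orc2 to Orc5, Dbf4, Recql4, Pole3 and Rfc1 stay pale or turn blue in some libraries.

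The promoters of the members were searched for letters that E2F factors are known to bind. RefSeq promoter windows (GRCm38, 250 bases before to 50 bases after the start) were matched by symbol for 41 members; Gins1, Gins2, Gins4, Gmnn, Mcm4, Pole, Prim2, Recql4, Rfc2 and Tipin had no entry in the table. TTTCGCGC, TTTGGCGC or TTTCCCGC, on either strand, stood in the windows of 16 of the 41 (39%), beside 573 of 27025 genes in the whole table (2.12%). The whole table includes genes that did not pass the filter on low counts. Among tested genes with a window, 421 held these letters and 10083 did not. Counting only bases before the start, 9 of 41 (22%) held them, beside 1.78% of all genes. CCAAT, the box bound by the NF-Y factor, stood on either strand in 24 of 41 (58.5%) and in 41.1% of all genes. In Mcm5 and in Mcm6, TTTCGCGC and TTTGGCGC on opposite strands overlap each other, so each such pair marks 1 place.

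The bases before the start of 6 members are shown, 180 for each, because they hold these letters at different places. They are Cdc6, the member that rose most, Orc1, the ORC subunit called higher, 3 subunits of the Mcm ring, and Orc3, which holds the letters and did not rise. Capitals mark the E2F letters and the CCAAT box, or their reverse complements GCGCGAAA, GCGCCAAA, GCGGGAAA and ATTGG.
Cdc6, chr11:98907971-98908150, plus strand: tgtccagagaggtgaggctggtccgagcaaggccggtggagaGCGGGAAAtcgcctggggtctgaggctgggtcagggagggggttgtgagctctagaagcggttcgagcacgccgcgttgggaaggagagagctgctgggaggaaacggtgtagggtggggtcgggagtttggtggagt
Orc1, chr4:108579274-108579453, plus strand: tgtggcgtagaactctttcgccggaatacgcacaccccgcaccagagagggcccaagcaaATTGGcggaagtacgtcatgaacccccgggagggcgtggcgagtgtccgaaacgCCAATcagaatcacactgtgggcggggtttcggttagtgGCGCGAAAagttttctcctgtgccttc
Mcm5, chr8:75109329-75109508, plus strand: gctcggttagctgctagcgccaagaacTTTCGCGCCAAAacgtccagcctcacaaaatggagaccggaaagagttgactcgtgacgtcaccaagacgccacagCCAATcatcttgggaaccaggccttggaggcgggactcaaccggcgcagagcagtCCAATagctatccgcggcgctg
Mcm6, chr1:128359706-128359885, minus strand: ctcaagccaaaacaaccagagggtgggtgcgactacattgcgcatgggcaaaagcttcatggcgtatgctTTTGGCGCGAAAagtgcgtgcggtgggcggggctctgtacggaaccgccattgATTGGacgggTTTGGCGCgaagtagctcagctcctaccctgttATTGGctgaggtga
Mcm7, chr5:138171884-138172063, minus strand: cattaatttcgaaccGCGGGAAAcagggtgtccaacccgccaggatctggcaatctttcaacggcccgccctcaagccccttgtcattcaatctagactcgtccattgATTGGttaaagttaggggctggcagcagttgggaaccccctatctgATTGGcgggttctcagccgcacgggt
Orc3, chr4:34614943-34615122, minus strand: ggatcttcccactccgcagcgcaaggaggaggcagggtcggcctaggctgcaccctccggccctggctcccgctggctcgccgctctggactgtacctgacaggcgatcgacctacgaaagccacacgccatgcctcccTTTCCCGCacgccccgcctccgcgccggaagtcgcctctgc

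Counting -1 as the base just before the start, the first base of the match lay at -138 in Cdc6, -27 in Orc1 and -41 in Orc3. In Mcm5 the joined pair began at -153, in Mcm6 at -110 with a further match at -47, and in Mcm7 at -165. Mcm7 was among the 7 members with more than 1 window. Another window of Mcm7, not shown, held a CCAAT box and no E2F letters. The members with a match split in the expression data as follows: 13 of 16 (81.2%) were called higher in KO cells, at a median of 1.47 on the log2 scale, beside 17 of 25 (68%) and 1.11 for members whose window held none. Over all tested genes with a window, 103 of 421 (24.5%) with a match and 1220 of 10083 (12.1%) without one were called higher. The 3 members that held a match and were not called were Orc3, Cdt1 and Pold3. A match of letters is a description of sequence and does not show that a factor was bound.

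Origin licensing was the step with the widest spread: 3 of 9 members were called higher and none lower, with a median log2 fold change of 0.48. Cdc6, the ATPase that brings Cdt1 and the Mcm ring to ORC, had 10.9 and 11.8 CPM in control, 72.7, 77.9 and 94.9 in KO1, and 85.8, 55.9, 78.8 and 82.4 in KO2. The KO libraries lay far above the controls, and the clones overlapped each other. Its log2 fold change of 2.78 ± 0.23 (SE), 6.89-fold, was the highest of the 51 members (edgeR adjusted p = 0.00046). Orc1, the ORC subunit whose protein is made and destroyed with each cell cycle, had 6.08 and 6.22 CPM in control and 14.3 to 26.9 in KO libraries, a log2 fold change of 1.82 ± 0.29 (edgeR adjusted p = 0.00432). Gmnn, which encodes geminin, the inhibitor of Cdt1, rose with them: 20.1 and 25.6 CPM in control and 48.9 to 80.8 in KO libraries (log2 fold change 1.40 ± 0.23, edgeR adjusted p = 0.00478). Cdt1 itself had 95.8 and 123 CPM in control and 120 to 193 in KO libraries, which overlap, and its log2 fold change of 0.48 ± 0.21 did not pass the test (edgeR adjusted p = 0.159).

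The other 5 ORC subunits did not pass the test in KO against control, and they differed in direction. Orc3 was the member with the lowest log2 fold change, -0.36 ± 0.14: it had 54.8 and 54.8 CPM in control, 41.6, 41.5 and 40.8 in KO1, and 48.9, 44.3, 37.6 and 45.3 in KO2. Every KO library lay below both controls, yet the difference missed the threshold (edgeR adjusted p = 0.118). Orc5 gave a like value, -0.35 ± 0.16, from 39.5 and 39.2 CPM in control to 26.4 to 35.5 in KO libraries (edgeR adjusted p = 0.165). Those were the 2 members in which every KO library was below both controls. Orc4 had a log2 fold change of -0.21 ± 0.20 and Orc2 of 0.10 ± 0.18, with overlapping libraries. Orc6 had 61.2 and 63.4 CPM in control, 67, 72.2 and 96.2 in KO1, and 118, 115, 102 and 94.2 in KO2, all above control, and its log2 fold change of 0.61 ± 0.23 fell just short (edgeR adjusted p = 0.106). In KO2 alone Orc6 was called higher (0.79, edgeR adjusted p = 0.0162). DESeq2 called Orc6 higher (log2 fold change 0.61, adjusted p = 0.0829) and Orc3 lower (-0.36, adjusted p = 0.073).

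Set per kilobase of exon, the mean levels of the ring subunits and of the ORC subunits overlapped in control and did not in KO libraries. The subunits of Mcm2-7 had mean levels of 12.4 to 45.9 in control and 42.8 to 121 in KO libraries, in CPM per kilobase of exon (RPKM). The ORC subunits had 1.77 to 25.2 in control and 5.02 to 38.5 in KO libraries, with Orc1 the lowest in control.

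**Figure D2:**
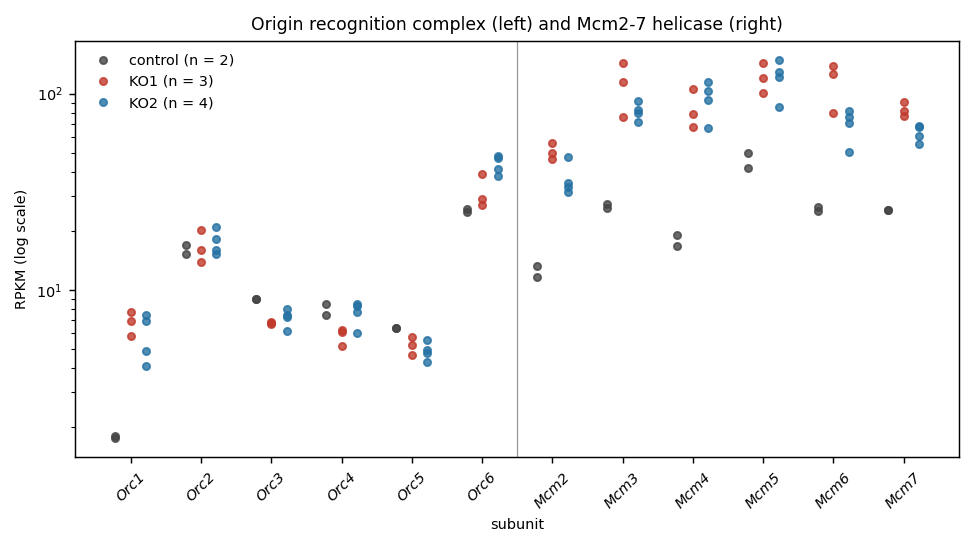
RPKM (log scale) of the 6 ORC and the 6 Mcm2-7 subunits, 1 point for each library, in control (2), KO1 (3) and KO2 (4). All 6 Mcm subunits, Orc1 and Orc6 have every KO point above both control points, while Orc2 and Orc4 overlap and Orc3 and Orc5 lie below.

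The helicase and its activators rose almost as a block. Of 16 members, 14 were called higher, with a median log2 fold change of 1.42. All 6 subunits of the Mcm2-7 ring were among them, with log2 fold changes from 1.41 (Mcm5) to 2.33 (Mcm4) and a median of 1.78. Mcm4 had 60.1 and 68.2 CPM in control, 242, 284 and 378 in KO1, and 334, 241, 371 and 409 in KO2 (log2 fold change 2.33 ± 0.26, edgeR adjusted p = 0.00125). Its KO libraries lay far above control and the clones overlapped. Mcm5, the most abundant subunit per length in control, went from 168 and 199 CPM to 341 to 594 (1.41 ± 0.23, edgeR adjusted p = 0.00423). Mcm2, Mcm3, Mcm6 and Mcm7 had log2 fold changes of 1.78, 1.82, 1.78 and 1.49, and none of their KO libraries overlapped control.

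The 4 GINS subunits were called higher as well, but unequally: log2 fold changes were 2.02 for Gins2, 1.40 for Gins1, 0.91 for Gins3 and 0.67 for Gins4. Gins3 had 14.8 and 16 CPM in control, 23.1, 21 and 27.8 in KO1, and 27.1, 49.9, 24.2 and 29.9 in KO2, so that 1 KO2 library stood well above the rest (edgeR adjusted p = 0.0834). In the annotation, 67.3% of the exon bases of Gins2 are shared with Gse1 on the opposite strand, so its value is uncertain. Cdc45, which joins Mcm2-7 and GINS in the active helicase, rose by 1.25 ± 0.29 (edgeR adjusted p = 0.0187). Mcm10, which helps to start unwinding, rose by 1.43 ± 0.31 (edgeR adjusted p = 0.0151), and Ticrr, which helps to bring Cdc45 to the ring, by 0.58 ± 0.16 (edgeR adjusted p = 0.0383).

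The kinase that fires origins was split. Its catalytic subunit Cdc7 had 24 and 22.9 CPM in control, 110, 82.7 and 68.3 in KO1, and 71, 71, 72.9 and 57.1 in KO2, a log2 fold change of 1.70 ± 0.25 (edgeR adjusted p = 0.00317). Its activator Dbf4 had 173 and 166 CPM in control, 274, 244 and 206 in KO1, and 191, 203, 169 and 142 in KO2. All KO1 libraries of Dbf4 lay above control and the KO2 libraries spread around it, and the log2 fold change over both clones was 0.27 ± 0.23 (edgeR adjusted p = 0.45). The lowest value of the step was that of Recql4, a helicase of the RecQ family: 18.8 and 32.1 CPM in control, 28, 34.8 and 42.5 in KO1, and 32.8, 19.7, 28.3 and 18 in KO2. The 2 control libraries lay far apart and the KO libraries spread across them, and its log2 fold change was 0.20 ± 0.33 (edgeR adjusted p = 0.726).

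**Figure D3:**
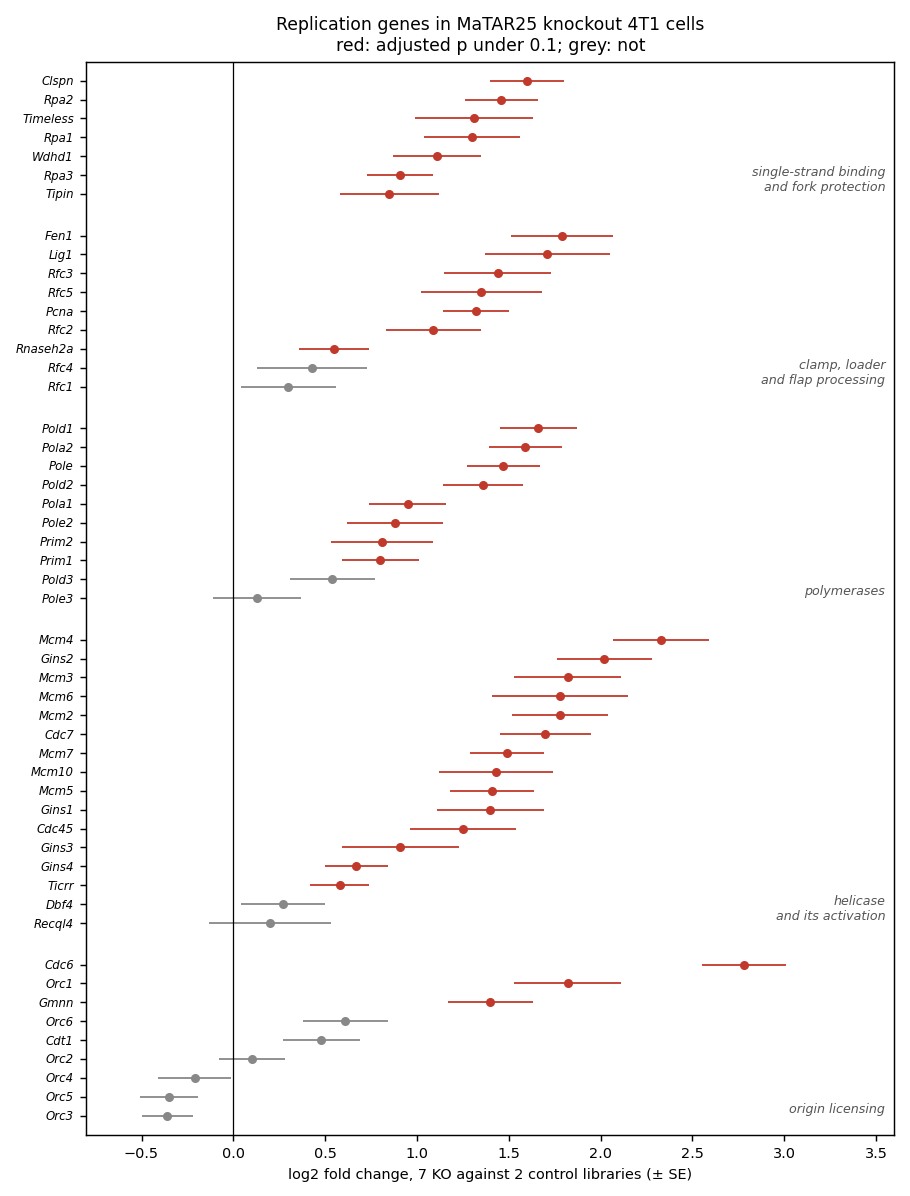
Log2 fold change of each member, 7 KO against 2 control libraries, with its standard error, by step. Red points passed an adjusted p of 0.1 (39 members) and grey points did not (12), and 5 of the grey points are ORC subunits.

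Among the polymerases, 8 of 10 members were called higher, with a median log2 fold change of 0.92. Pold1, the catalytic subunit of polymerase delta, had 40.1 and 47.7 CPM in control, 148, 173 and 154 in KO1, and 124, 104, 130 and 141 in KO2. The groups stood well apart, and its log2 fold change of 1.66 ± 0.21 was the highest of the step (edgeR adjusted p = 0.00181). Pole, the catalytic subunit of polymerase epsilon, went from 71.1 and 80.7 CPM to 180 to 257 (1.47 ± 0.20, edgeR adjusted p = 0.00242). The accessory subunits Pold2 and Pole2 rose by 1.36 and 0.88.

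Within the polymerase alpha and primase complex, which makes the primers, Pola2 rose by 1.59 ± 0.20 and the catalytic subunit Pola1 by 0.95 ± 0.21. The primase subunits Prim1 and Prim2 rose by 0.80 and 0.81, and Prim2 passed the test narrowly (edgeR adjusted p = 0.0832). At the low end was Pole3, a histone-fold subunit of polymerase epsilon that is also found in chromatin remodelling complexes: 55.2 and 61.6 CPM in control, 58.1, 61.6 and 72.1 in KO1, and 60.6, 92.4, 59.6 and 43.4 in KO2. Control and KO libraries of Pole3 overlapped, with a log2 fold change of 0.13 ± 0.24 (edgeR adjusted p = 0.752). Pold3, an accessory subunit of polymerase delta, had a log2 fold change of 0.54 ± 0.23 (edgeR adjusted p = 0.139).

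Of the clamp, its loader and the flap-processing enzymes, 7 of 9 were called higher, with a median log2 fold change of 1.32. Pcna, the sliding clamp, had 115 and 129 CPM in control, 283, 308 and 354 in KO1, and 354, 246, 270 and 312 in KO2 (1.32 ± 0.18, edgeR adjusted p = 0.00242). Its KO libraries all lay above both controls, and the clones overlapped. Fen1, the flap endonuclease, had the highest log2 fold change of the step, 1.79 ± 0.28 (edgeR adjusted p = 0.0041). It was read at 3.31 and 4.39 CPM in control, 11.3, 12.4 and 12.5 in KO1, and 13.9, 18.2, 11.1 and 13.6 in KO2. Those levels are low, and 78.8% of its exon bases are shared with the antisense gene Gm10143. Without strand, reads on shared bases cannot be given to 1 of the 2 genes. Whether such reads were left out or counted is not stated. Lig1, the ligase that seals nicks between lagging-strand fragments, rose by 1.71 ± 0.34 (edgeR adjusted p = 0.0109).

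The RFC loader did not move as a unit. Rfc3, Rfc5 and Rfc2 rose by 1.44, 1.35 and 1.09, while Rfc4 had a log2 fold change of 0.43 ± 0.30 and Rfc1, the large subunit, of 0.30 ± 0.26. Rfc1 had 188 and 200 CPM in control, 358, 273 and 244 in KO1, and 171, 228, 219 and 173 in KO2, above control in KO1 and around it in KO2 (edgeR adjusted p = 0.475 over both clones). Rnaseh2a, the catalytic subunit of the RNase H2 that removes ribonucleotides from DNA, rose by 0.55 ± 0.19 (edgeR adjusted p = 0.0808).

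All 7 members of single-strand binding and fork protection were called higher, with a median log2 fold change of 1.30. Clspn (claspin), which carries the checkpoint signal at stalled forks, had 25.4 and 30.4 CPM in control, 67.1, 75.7 and 82.8 in KO1, and 102, 94.8, 76.2 and 91.9 in KO2, with no overlap between KO and control (1.60 ± 0.20, edgeR adjusted p = 0.00181). The subunits of replication protein A, which coats single-stranded DNA, rose by 1.30 (Rpa1), 1.46 (Rpa2) and 0.91 (Rpa3). Timeless and Tipin form the fork protection complex and rose by 1.31 and 0.85, and Wdhd1, which ties polymerase alpha to the helicase, by 1.11. Tipin was the lowest of the step: 48.8 and 52.5 CPM in control, 90.2, 92.3 and 124 in KO1, and 106, 89.8, 52 and 82.8 in KO2. KO2 replicate 3 lay between the controls and the other 6 KO libraries lay above them (0.85 ± 0.27, edgeR adjusted p = 0.0646).

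Each clone was also set against control on its own, with the same 2 control libraries in both comparisons. In KO1, 41 members were called higher and 1 lower, the median log2 fold change being 1.41, beside 15.9% of all genes higher and 15.7% lower. In KO2, 40 were called higher and 0 lower, with a median of 1.09, beside 16.5% of all genes higher and 15% lower. DESeq2 called 42 and 40 members higher. The 1 member called lower in KO1 was Orc3, with a log2 fold change of -0.41 (edgeR adjusted p = 0.0895), beside -0.32 in KO2 (edgeR adjusted p = 0.154). That call was lost without either control replicate or any 1 of the KO1 replicates, and 2 members were called lower without KO2 replicate 4, where KO2 also had 1. Both clones called 37 members higher, KO1 alone Cdt1, Dbf4, Pold3 and Rfc1, and KO2 alone Orc6, Gins3 and Prim2. Whether those 7 differ between the clones is a separate test, given next. Without control replicate 1, 29 members were called higher in KO1 and 23 in KO2, where 4.54% and 4.03% of all genes were.

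The clones were compared directly, a contrast in which the controls serve only for the shared spread. Of 51 members, 12 were called higher in KO1, 1 lower, and 38 did not pass, with a median log2 fold change (KO1 minus KO2) of 0.19 and the highest at 0.74. Among all genes tested, 9.43% were called higher in KO1 and 10.2% lower. Adjusted p-values were the lowest for Rfc2, Lig1, Rfc5, Mcm10, Timeless, Rfc3, Mcm6 and Rfc1. Of the members called in 1 clone alone, Dbf4, Rfc1 and Orc6 passed this test and Cdt1, Pold3, Gins3 and Prim2 did not. The count of 12 was 2 without KO1 replicate 2, where 3.11% of all genes were called higher in KO1. It was 7 without KO1 replicate 1, where 5.28% were.

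Of the 9 genes of the clamp, its loader and flap processing, 5 were called higher in KO1 than in KO2: Lig1 and all RFC subunits but Rfc4. Rfc2 had 155, 145 and 135 CPM in KO1, and 91.3, 86.9, 109 and 94.5 in KO2, beside 49.3 and 59.9 in control (KO1 minus KO2 0.61 ± 0.13, edgeR adjusted p = 0.0224). Rfc5 had 182, 139 and 132 CPM in KO1, and 87.9, 101, 102 and 74 in KO2, beside 42.7 and 49.1 in control (0.73 ± 0.17, edgeR adjusted p = 0.0256). Rfc3 had 85.6, 92 and 85.5 CPM in KO1, and 72.2, 45.7, 61.8 and 51.8 in KO2, beside 26.3 and 25.6 in control (0.60 ± 0.16, edgeR adjusted p = 0.0459). In these 3 subunits the clones did not overlap, and both clones lay above control. Rfc1, given above, differed by 0.56 ± 0.17 (edgeR adjusted p = 0.0615), and Rfc4 by 0.20 ± 0.27 (edgeR adjusted p = 0.669). Lig1 had 201, 284 and 234 CPM in KO1, and 134, 126, 166 and 147 in KO2, beside 48.2 and 64.9 in control (0.74 ± 0.17, edgeR adjusted p = 0.0247).

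At the helicase and the fork, Mcm10 had 105, 153 and 157 CPM in KO1, and 91.6, 83.9, 90.7 and 78.5 in KO2, beside 37.8 and 43 in control (0.69 ± 0.16, edgeR adjusted p = 0.0273). Timeless had 111, 135 and 148 CPM in KO1, and 77.1, 71, 102 and 74 in KO2, beside 39.3 and 43.6 in control (0.70 ± 0.16, edgeR adjusted p = 0.0273). Mcm6 had 373, 587 and 645 CPM in KO1, and 330, 236, 379 and 354 in KO2, beside 118 and 123 in control (0.72 ± 0.21, edgeR adjusted p = 0.0572). The clones did not overlap in Mcm10 and Timeless and overlapped narrowly in Mcm6. Orc6 was the member called lower in KO1, with a log2 fold change of -0.45 ± 0.16 (edgeR adjusted p = 0.0937), a call lost without either control replicate, KO1 replicate 1 or 2, or KO2 replicate 1 or 2, while 2 members were called lower without KO2 replicate 4.

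Where these members lie in the genome was set beside their values. Of the 12 members called higher in KO1, 7 (Mcm7, Dbf4, Pole, Rfc1, Rfc2, Rfc3 and Rfc5) lie on chromosome 5, which holds 9 of the 51. On that chromosome the median log2 fold change between the clones was 0.16 over 1034 genes tested, with 11% called higher in KO1 and 4.84% lower, and the median of its 9 members was 0.45. Orc6 lies on chromosome 8, where the median of 806 genes was -0.34 and 28.5% were called lower in KO1. Its value less that median was -0.12. Taken less the median of its own chromosome, the difference was 0.57 for Rfc5, 0.45 for Rfc2, 0.44 for Rfc3, 0.81 for Timeless and 0.73 for Mcm10. For KO against control, the median of the 51 members was 1.17 on that scale. The part of gene dosage in these values was not tested.

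**Figure D4:**
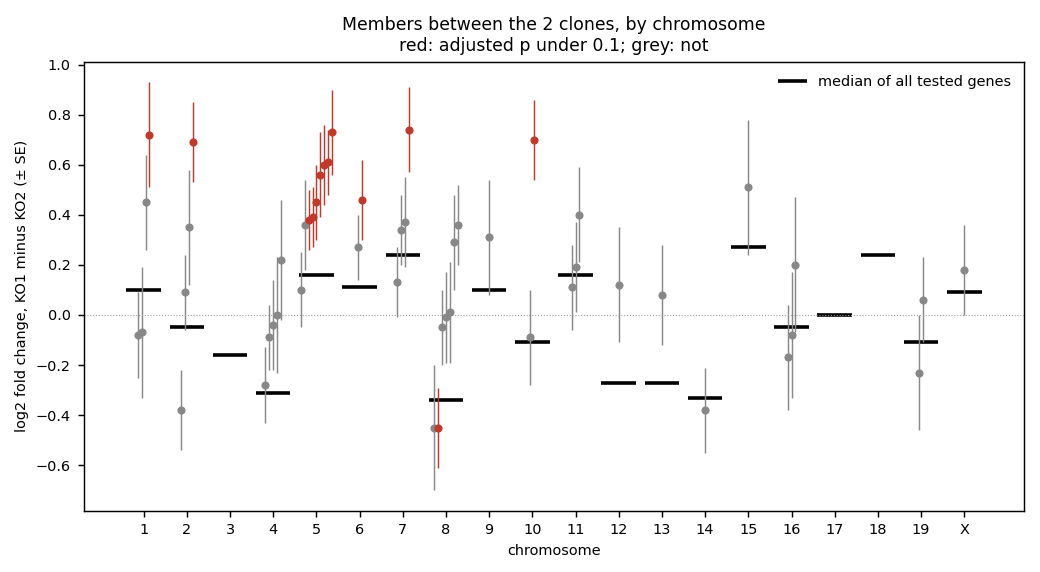
Log2 fold change between the clones (KO1 minus KO2) of each member, with its standard error, by chromosome, and the median of all tested genes on that chromosome as a black bar. Red points passed an adjusted p of 0.1: 7 lie on chromosome 5, and the 1 red point below 0 is Orc6 on chromosome 8, close to the bar at -0.34.

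A list of 39 further genes of the same process, with nucleotide supply, chromatin assembly and the S-phase kinase, was read as well. Of these, 28 were called higher in KO than in control cells, 1 lower and 10 not, with a median log2 fold change of 1.08. Dna2, a nuclease of long flaps, rose by 2.57 ± 0.35, Ccne1, the cyclin that activates Cdk2 at the start of S phase, by 2.50 ± 0.29, and Chaf1b, a subunit of the histone chaperone CAF-1, by 2.14 ± 0.23. Rrm2, the regulated subunit of ribonucleotide reductase, had 64.7 and 76.9 CPM in control and 207 to 358 in KO libraries (2.01 ± 0.26, edgeR adjusted p = 0.00181). Tyms and Tk1, which make thymidine nucleotides, rose by 1.58 and 1.05. Asf1a, a histone chaperone, was the 1 member of that list called lower, with a log2 fold change of -0.48 ± 0.16 (edgeR adjusted p = 0.0671). Without control replicate 1, 9 of the 39 were called higher, and without control replicate 2, 13. The call of Asf1a was lost without either control replicate and without KO1 replicate 1 or 2.

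Cell cycle genes that are not members were set beside them, of which Ccne2, Rrm2 and Top2a, all called higher, also stand in the list of 39 above. Of 9 S-phase genes 6 were called higher (median 1.30 on the log2 scale), and of 13 G2/M genes 7 (median 0.66). Of 4 G1 genes 1 was called higher and 1 lower (median 0.12), while Cdkn1a and Ccng2 did not pass (-0.04 and 0.28). Mki67, a marker of cycling cells, had 403 and 423 CPM in control and 781 to 1195 in KO libraries (1.25 ± 0.17, edgeR adjusted p = 0.00246), while Aurka and Ube2c had log2 fold changes of 0.19 and 0.07 and did not pass. Among the regulators, E2f1 had 20 and 24.3 CPM in control and 66.4 to 125 in KO libraries (2.16 ± 0.27, edgeR adjusted p = 0.00175). E2f8 and E2f7, which encode repressors of the same family, rose by 1.78 and 1.22, and E2f2, E2f3, E2f4 and Rb1 did not pass over both clones. Rb1 was called lower in KO1 (-0.94, edgeR adjusted p = 0.0698) and was at 0.01 in KO2. The KO2 libraries of Rb1 were spread, at 13.8, 17.6, 15.6 and 31.9 CPM, beside 19 and 20.3 in control. Between the clones, Rb1 and E2f3 were called lower in KO1 (-0.95 and -0.48, edgeR adjusted p = 0.0641 and 0.078). Ccnd1, the G1 cyclin that acts upstream of Rb1, rose by 2.01 ± 0.43 (edgeR adjusted p = 0.0137). Myc fell by 1.13 on the log2 scale (edgeR adjusted p = 0.0205) and Cdkn1b, an inhibitor of cyclin-dependent kinases, fell by 0.70 (edgeR adjusted p = 0.0235). The share of cells in each phase was not measured in these libraries, and its part in the values of the members was not tested.

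The ChIRP peak lists, which give genomic places recovered with probes against MaTAR25, were read as another measurement of the same genes. Within 5 kb of the gene body, 33 of the 51 members (64.7%) had a peak in the list of the total probe pool in 4T1 cells, beside 66% of the 14949 tested genes with coordinates. In the even probe pool 31 members (60.8%) had one, beside 57.9% of tested genes, and in the odd pool 28 (54.9%), beside 57.7%. The even-pool list holds no peak on chromosome 3, where 816 tested genes and 0 members lie. That lowers the even-pool share of tested genes and not that of members. In the total-pool list, with scores of at least 100, 16 members (31.4%) had one, beside 29.6% of tested genes. In the list from MMTV-Neu-NDL cells, a line from mouse mammary tumours, 35 members (68.6%) had one, beside 64.7%. When each peak was instead given to the nearest promoter, the members' share was below that of tested genes in each list: 25 members (49%) beside 59.9% in the total pool, 22 (43.1%) beside 53.2% in the even pool, 26 (51%) beside 52.7% in the odd pool, and 26 (51%) beside 58.3% in the MMTV-Neu-NDL list. The 3 highest Mcm5 scores in the total-pool list were 192.3, 62.0 and 43.2, and the strongest, at chr8:75122347-75122972, lay 13090 bases into the gene and ranked 6729 of 76806 peaks. Cdc6, the member that rose most, had 4 peaks with scores of 73.4 or less, and Mcm4 and Orc1 had none in that list. The highest scores of any members there were 556.9 for Pold3 (rank 639), 457.6 for Rpa1 (rank 1153) and 421.5 for Timeless (rank 1432). The lists pool replicates, so no error can be given for them.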

How the data were processed

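Per the labels and the study's methods, polyadenylated RNA was sequenced single-end; the authors mapped reads to GRCm38 with STAR and deposited HTSeq counts per gene (GENCODE vM5), not normalized. The kit does not mark strand. In GENCODE vM21, not the version used for counting, 21 of the 51 members share exon bases with another gene and are less certain. Fen1, Gins2, Orc1, Orc2, Rfc2, Rfc4 and Rfc5 share over 10% of theirs. For Orc5, Pole2 and Rpa1 the other gene lies on the same strand. In each library 33.9 to 37% of counts were assigned to no gene and stayed out. Most of these were alignments that were not unique, 24.1 to 27.5% of all counts. In the file of KO2 replicate 2 every gene stands 3 times, with the same count, and was taken once. ChIRP peak scores were deposited by the authors from HOMER (Bowtie2 mapping to GRCm38, the Ppib pulldown as background, replicates pooled).

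Counts were tested with edgeR 4.0.16 (TMM, filterByExpr, quasi-likelihood test, Benjamini-Hochberg over all genes, threshold 0.1, the threshold of the study, which used DESeq2) in R 4.3.3. KO1 and KO2 were 1 group against control, and each clone was compared in a fit with 3 groups. CPM use TMM library sizes, RPKM divide them by GENCODE vM21 exon length, and SE is the log2 fold change divided by the root of F. The biological coefficient of variation was 41.98% with 2 groups and 32.47% with 3. Tested on simulated data for KO against control (14896 genes tested), 91 of 100 genes changed 4-fold and 18 of 100 changed 2-fold were called, with 14 false calls. Every simulated gene had a variation of 32.47%, below that of the fit with 2 groups, and both clones had the same mean. These numbers therefore do not cover calls that come from differences between the clones. Samples with the same replicate number deviated with correlations from -0.1488 to 0.04289, so the numbers were not taken to pair them.

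Values in each library are given for the highest and lowest member of each step, members that fell, and the 8 lowest adjusted p between the clones; others were added for their role after values were seen. Members, lists and alternatives were chosen with earlier results of these data known. Alternatives were DESeq2 1.42.0, RLE size factors, other filters, 0.05 as threshold, the replicate block, other samples in the fit, peaks by nearest promoter, the other peak lists and leaving out each library; subtracting chromosome medians was chosen after seeing the data.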

Additional observations from a re-analysis of the deposited data

Results flagged for a closer look

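In 13 members the change against control differed between the clones, by the edgeR test of KO1 against KO2 (adjusted p under 0.1). These are 25.5% of the members, beside 19.6% of all genes tested, and 2 of the 13, Rfc2 and Rfc5, were called under every alternative run. The log2 fold change, KO1 minus KO2, was 0.74 for Lig1, 0.73 for Rfc5, 0.72 for Mcm6, 0.70 for Timeless, 0.69 for Mcm10, 0.61 for Rfc2, 0.60 for Rfc3, 0.56 for Rfc1, 0.46 for Mcm2, 0.45 for Dbf4, 0.39 for Mcm7, 0.38 for Pole and -0.45 for Orc6.

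In the 4 KO2 libraries, 1 library stood far from the others in 4 of the 51 members, past the 95% critical value of Dixon's test, which chance alone passes in about 1 of 20 groups. Gmnn was at 80.8 CPM in KO2 replicate 4, beside 48.9 to 53.3 in the other 3. Gins1 was at 15.5 CPM in KO2 replicate 2, beside 28.4 to 29.9. Cdc7 was at 57.1 CPM in KO2 replicate 4, beside 71 to 72.9, and Pola2 at 99.5 CPM in KO2 replicate 3, beside 135 to 142.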

How the results depend on the processing

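The median log2 fold change of the members stayed positive in the 4 comparisons under every alternative run: with 1 library left out it ran from 1.19 to 1.41 for KO, 1.28 to 1.47 for KO1, 1.01 to 1.15 for KO2 and 0.12 to 0.24 between the clones, and less the chromosome median it was 1.17, 1.35, 1.07 and 0.23. Called under all 16 alternatives for KO against control were 17 of 39 members: Orc1, Cdc6, Mcm2, Mcm3, Mcm4, Mcm5, Mcm7, Gins2, Cdc7, Pola2, Pold1, Pold2, Pole, Pcna, Fen1, Rpa2 and Clspn. Between the clones, 2 of 13 (Rfc2 and Rfc5) were.

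With 1 library left out, members called higher ran from 17 to 40 for KO, 29 to 43 for KO1, 23 to 40 for KO2 and 2 to 11 between the clones, and those called lower from 0 to 1, 0 to 2, 0 to 1 and 0 to 2. Of the further replication genes, 9 to 31 were called higher and 0 to 1 lower. Leaving out a control leaves 1, whose spread is taken from the other groups. With 1 KO library left out, 9.98 to 13.8% of all genes were called higher for KO and 11.5 to 18.7% for KO1. For KO2 the share was 14.2 to 18.7%, and between the clones 3.11 to 13.5%. Members called lower in KO numbered 1 under DESeq2 and under the 3-group fit. In KO1 they numbered 0 at a threshold of 0.05, with no filter and with the replicate block, and 2 with at least 10 counts in every library and with only the groups compared. Between the clones, the number higher in KO1 was 6 at 0.05, 6 with the replicate block and 7 with only the groups compared, and the number lower was 0 under each of these and with no filter. Of all genes, 6% were called higher in KO1 than in KO2 with the replicate block and 6.56% with only the groups compared. With the replicate block, 32 members were called higher in KO, 39 in KO1 and 35 in KO2, beside 6.84%, 13.5% and 12.6% of all genes. Peaks with scores of at least 100 were near 16 members in place of 33, and E2F letters before the start stood in 9 in place of 16.

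Directions turned only in members that were not called: Orc2 in KO at -0.02 with the replicate block, and, between the clones, Mcm5 at -0.01 (at least 10 counts), -0.14 (replicate block) and -0.00 (only the groups compared), Cdc45 at 0.06 and Prim2 at 0.11 (replicate block), and Pole3 at 0.00 (DESeq2) and 0.02 (no filter). With 1 library left out, ranges that cross 0 were -0.12 to 0.64 for Recql4 in KO, and, between the clones, -0.23 to 0.04 for Orc2, -0.01 to 0.19 for Cdc6, -0.01 to 0.27 for Gmnn, -0.13 to 0.13 for Mcm5, -0.38 to 0.10 for Cdc45, -0.11 to 0.05 for Gins4, -0.07 to 0.18 for Pola2, -0.29 to 0.05 for Prim1, -0.25 to 0.09 for Prim2, -0.03 to 0.35 for Pole2, -0.15 to 0.22 for Pole3, -0.13 to 0.12 for Rnaseh2a and -0.20 to 0.07 for Rpa2. The cause of these changes was not tested beyond the fewer samples or genes in each fit.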

Other observations

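The KO libraries did not carry the members equally. KO2 replicate 2, the library with the fewest counts on genes (25367211), was the lowest of the 7 KO libraries for 22 of the 51 members, and KO1 replicate 3 was the highest for 15. The median level of the members over the control mean, on the log2 scale, was 1.48 in KO1 replicate 3 and 0.87 in KO2 replicate 2. The share of counts assigned to no gene, most of them alignments that were not unique, was 33.9 and 34.3% in control and 34.8 to 37% in KO libraries.

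Fam111a, which acts at replication forks, had the highest log2 fold change of the further replication genes (3.62 ± 0.86, edgeR adjusted p = 0.0199), but its control libraries stood apart, at 1.43 and 9.37 CPM, beside 20.7 to 130 in KO libraries.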
